A study of Mus musculus with 48 samples.

Results

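The difference between 2 knockout effects was measured in female mice: the knockout minus wild type effect in the lacrimal gland, minus the same effect in the meibomian gland. Its members are the 24 female samples of the 48 in the series, chosen from the labels alone, and they are 12 Affymetrix and 12 CodeLink arrays. The 4 groups were lacrimal glands of homozygous aromatase knockout (KO) females, lacrimal glands of wild type (WT) females, meibomian glands of KO females and meibomian glands of WT females, the wild types matched for age. Each group held 3 pools of glands from 5 to 8 mice, and no strain, age, diet or cycle stage is in the labels used here. By the design text each labelled preparation went onto both array types, so CodeLink repeats the measurement on the same pools and adds no animals. The male arrays, 24 of the same layout, entered the fit for its estimate of the spread and for the contrast between the sexes.

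Aromatase, the product of Cyp19a1, converts androgens to estrogens, so a knockout female lacks estrogen synthesis while her ovaries still make androgens. Lacrimal acinar cells secrete the proteins and fluid of the aqueous tear film and are known to differ between the sexes under androgen control. Meibomian glands are holocrine sebaceous glands of the eyelid whose cells fill with lipid, burst and release it onto the tear film, and they too are known targets of sex steroids.

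No Affymetrix probe set or CodeLink spot that names only Cyp19a1 was in the tables, and the knockout was not checked at its own gene here. The median deposited Affymetrix signal was 12.2 to 13.7 in KO lacrimal arrays and 15.6 to 19.7 in WT lacrimal arrays, and these ranges did not overlap. It was 56.7 to 64.0 in KO meibomian and 35.5 to 65.4 in WT meibomian arrays. Each array was brought to 1 common median, and every signal below is on that scale. Lpo, the lactoperoxidase of tear fluid, had signals of 9609.6, 10828 and 11085 in KO lacrimal pools and 5719, 5674 and 5221 in WT lacrimal pools, and at most 6.1 in meibomian pools. Elovl3, a fatty acid elongase of sebaceous glands, read 1819.6, 1963 and 1850.3 in KO meibomian pools and 2325, 2803 and 2006 in WT meibomian pools, and at most 21.5 in lacrimal pools. The meibomian samples also held signal of skeletal muscle markers: the summed signal of 5 of them was 4972 to 5582 in KO meibomian and 5164 to 6732 in WT meibomian pools, against at most 88.2 in lacrimal pools. For 5 keratinocyte markers it was 1865 to 3748 in KO and 2574 to 3773 in WT meibomian pools, against at most 126.6 in lacrimal pools. For 3 conjunctiva markers it was 1863 to 2351 in KO and 2442 to 3136 in WT meibomian pools, against at most 34.0. The part of such tissue in the differences was not tested. The salivary proteins did not move together among the lacrimal pools. Bpifa2 had signals of 14165, 11088 and 30.9 in KO lacrimal pools and 9976, 3794 and 3072 in WT lacrimal pools, and Smr3a and Cst10 were also lowest in KO replicate 3, at 0.9 and 1.6. Mucl2, of the same list, read 16450.3, 16464 and 16752 in KO lacrimal pools and 10931, 12486 and 15208 in WT lacrimal pools, highest in KO replicate 3. The summed signal of the 5 salivary markers was 16795 to 43709 in KO and 16628 to 32796 in WT lacrimal pools. Fewer cells of a type and less RNA per cell cannot be told apart in such pools.

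The gland difference was positive for 98 and negative for 51 of 6578 genes (149 in all) at an adjusted p of 5%, by limma with Benjamini-Hochberg adjustment over all genes tested. These are 1.49% and 0.775% of the genes tested, 2.27% together. A positive value means that the knockout effect was higher in the lacrimal than in the meibomian gland, and all effects are log2 differences with their standard error (SE). The lacrimal knockout effect alone passed for 169 genes upward (2.57%) and 344 downward (5.23%), and the meibomian effect for 1 gene (0.0152%). Over all genes tested, the SD of the lacrimal effect was 0.388 and that of the meibomian effect 0.21, and 147 genes changed by at least 1 log2 unit in the lacrimal gland against 6 in the meibomian gland. Across genes the effects had a correlation of −0.02 on Affymetrix and −0.03 on CodeLink, as a description over genes, which are not independent.

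Of the 149 genes, 129 also passed for the lacrimal effect, none for the meibomian effect, and 135 had the larger absolute effect in the lacrimal gland. The median lacrimal effect was 0.97 among the 98 positive genes and −1.18 among the 51 negative ones, while their median meibomian effects were −0.26 and 0.05. Another 384 genes passed for the lacrimal effect but not for the difference, and for these a gland difference was not shown. Replicates varied more in the lacrimal gland, with a median SD per gene of 0.186 in KO and 0.217 in WT lacrimal pools, against 0.126 in KO and 0.137 in WT meibomian pools. With 1 variance for each gland, 187 genes passed for the lacrimal effect and 119 for the meibomian effect, while 130 passed for the difference, 119 of them among the 149. Of the 149, 14 had a called meibomian effect in that fit. A meibomian effect that did not pass is therefore not shown to be absent. The split of positive to negative calls moved with the scaling and the array type: it was 80 to 93 when values were centred after the logarithm, and 60 to 71 on CodeLink. The count was 171 without KO lacrimal replicate 1, 94 without KO lacrimal replicate 2, 80 without KO lacrimal replicate 3, 78 without KO meibomian replicate 1 or 3, 97 without WT meibomian replicate 1 and 95 without WT meibomian replicate 2.

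**Figure D1:**
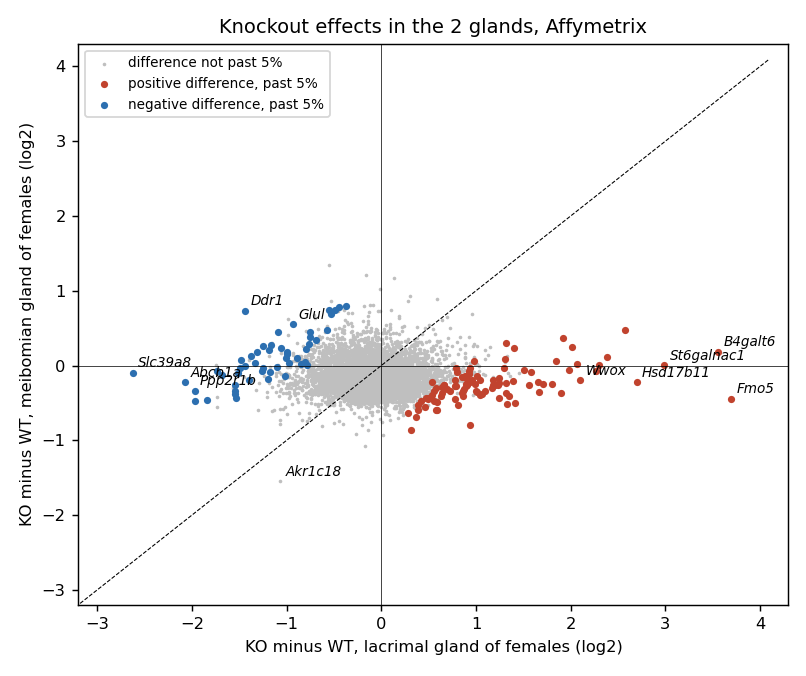
Each point is 1 of 6578 genes, with the KO minus WT difference (log2) in the lacrimal gland of females on the x axis and in the meibomian gland on the y axis. Red and blue points are the 98 positive and 51 negative gland differences past 5%, grey points are all other genes, and the dashed line marks equal effects. Of the coloured points, 135 have the larger absolute effect on the lacrimal axis and the rest on the meibomian axis, and Akr1c18 lies near the dashed line.

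The genes described next are the 15 largest positive and 15 largest negative differences past 5% among those with the same sign on CodeLink, or with no CodeLink spot. They are ordered by known role for reading only, and the order carries no test of a group. Fmo5, a flavin-containing monooxygenase, had signals of 395, 907 and 847 in KO lacrimal pools, against 61.7, 46.7 and 38.8 in WT lacrimal pools. The lacrimal groups did not overlap, and Fmo5 was 124, 153 and 103 in KO meibomian pools, against 166, 198 and 155 in WT meibomian pools, with the KO pools below all WT pools. The lacrimal effect was 3.70 ± 0.25, the meibomian effect −0.45 ± 0.25 (adjusted p = 0.553), and the gland difference 4.14 ± 0.36, adjusted p = 1.78e-08. With the scaling used here the meibomian effect was negative for 79.2% of all genes tested, a share that depends on that scaling. The share without overlap between KO and WT meibomian pools was not counted. The CodeLink spot of Fmo5 had readings of 1.94, 2.45 and 3.13 in KO lacrimal pools and 0.63, 0.45 and 0.38 in WT lacrimal pools. Its meibomian readings all had the flag L rather than G, letters that the deposited tables leave undefined.

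Hsd17b11, a short-chain dehydrogenase of lipid droplets that oxidises androgen metabolites, read 1514, 1926 and 2402 in KO lacrimal pools, against 371, 301 and 222 in WT lacrimal pools. Every KO lacrimal pool was above every WT lacrimal pool. It read 539, 493 and 546 in KO meibomian pools, against 593, 679 and 572 in WT meibomian pools. The 3 KO meibomian pools were below the 3 WT meibomian pools, but the meibomian effect of −0.22 did not pass (adjusted p = 0.657). The gland difference was 2.92 ± 0.29, adjusted p = 1.23e-07. On CodeLink all 12 readings of its spot were under 0.75 without the flag G, with a difference of 0.38, and the other Affymetrix probe set gave 1.56.

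Pmvk, the phosphomevalonate kinase of cholesterol synthesis, read 116, 207 and 120.4 in KO lacrimal pools, against 27.0, 33.9 and 18.8 in WT lacrimal pools. It read 301, 308 and 266 in KO meibomian pools, against 280.2, 322 and 271 in WT meibomian pools, with overlapping groups. The gland difference was 2.29 ± 0.34, adjusted p = 0.000155 on Affymetrix and 2.55 ± 0.42, adjusted p = 0.00185 on CodeLink. Plpp1, which removes phosphate from phosphatidic and lysophosphatidic acid, differed by 2.04 ± 0.28, adjusted p = 5.48e-05, and Acaa1b, a peroxisomal thiolase of fatty acid oxidation, by 2.02 ± 0.37, adjusted p = 0.00185. Acaa1b was abundant in meibomian pools, at 1086, 1517 and 1479 in KO and 1617, 1761 and 1798 in WT, while lacrimal pools had 117, 240.0 and 255 in KO and 58.9, 67.7 and 49.8 in WT. Scd1, the desaturase that makes monounsaturated fatty acids and is known for its high level in meibomian glands, read 2988, 3452 and 2644 in KO lacrimal pools, against 1282, 1036 and 1246 in WT lacrimal pools. Its meibomian signals were 3782, 3923 and 3869 in KO and 4502, 7044 and 4246 in WT pools, and the gland difference was 1.75 ± 0.31, adjusted p = 0.00162. The summed signal of the 6 meibomian markers on the array, Scd1 among them, was 3429 to 4339 in KO lacrimal pools against 1876 to 1948 in WT lacrimal pools. Of these, Elovl3, Elovl4 and Krt79 were at or below 28.4 in every lacrimal pool, Dgat2 read 958, 779 and 688 in KO and 564, 796 and 537 in WT lacrimal pools, and Mc5r 47.3, 66.1 and 48.2 in KO and 72.3, 52.1 and 65.3 in WT lacrimal pools. Their part in the result was not tested.

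B4galt6, which makes lactosylceramide, read 600.0, 884 and 860.4 in KO lacrimal pools, against 58.0, 87.2 and 46.7 in WT lacrimal pools. The meibomian signals were 52.9, 39.7 and 61.3 in KO and 44.0, 50.2 and 38.7 in WT pools, which overlapped, and the gland difference was 3.37 ± 0.31, adjusted p = 4.24e-08. All 4 probe sets of B4galt6 agreed in sign, from 2.95 to 3.37. St6galnac1, which adds sialic acid to the first sugar of mucin-type chains, read 77.3, 595 and 472 in KO lacrimal pools, against 32.4, 24.4 and 41.0 in WT lacrimal pools. KO replicate 1 was well below the other KO lacrimal pools though above all WT pools. Meibomian pools lay between 244 and 263 in KO and between 249 and 253 in WT, and the gland difference was 2.98 ± 0.65, adjusted p = 0.00936, with 2.54 ± 0.51, adjusted p = 0.00824 on CodeLink. Fut8, which adds the core fucose of N-glycans, differed by 2.27 ± 0.43, adjusted p = 0.00232, and by 1.88 ± 0.52, adjusted p = 0.0604 on CodeLink.

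Wwox, an oxidoreductase with WW domains, read 132, 127 and 112 in KO lacrimal pools, against 27.6, 26.0 and 24 in WT lacrimal pools. The gland difference of Wwox was 2.30 ± 0.26, adjusted p = 1.83e-06, and 1.74 ± 0.21, adjusted p = 6.65e-05 on CodeLink, with all 3 probe sets positive. Bok, a pro-apoptotic Bcl family member, differed by 2.33 ± 0.29, adjusted p = 1.04e-05, and by 1.00 ± 0.37, adjusted p = 0.188 on CodeLink. Fas, the death receptor of the tumour necrosis factor receptor family, read 34.3, 22.3 and 54.9 in KO lacrimal pools, against 2.3, 4.0 and 1.8 in WT lacrimal pools. The mean of the WT lacrimal pools was under the pseudocount of 3.9 added before the logarithm, so the size of its difference (2.10 ± 0.46, adjusted p = 0.00936) depends on that setting and ran from 1.14 to 2.93 over all alternatives. Nrg4, an epidermal growth factor family ligand, read 355, 600.3 and 579.8 in KO lacrimal pools, against 120.2, 224 and 102 in WT lacrimal pools, and its gland difference was 2.05 ± 0.32, adjusted p = 0.00027 on Affymetrix and 1.69 ± 0.33, adjusted p = 0.00589 on CodeLink. The proteoglycan gene Sdc3 (2.04), the deoxyribonuclease gene Dnase1l2 (2.27) and the interferon-induced exonuclease gene Isg20 (1.92) complete these 15 genes. The probe sets of Sdc3 disagreed, from −1.14 to 2.04. In all 15 genes, chosen for their large differences, the 3 KO lacrimal pools were above the 3 WT lacrimal pools, as in 514 of all 6578 genes tested (7.81%). Here the meibomian effects lay between −0.50 and 0.47.

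**Figure D2:**
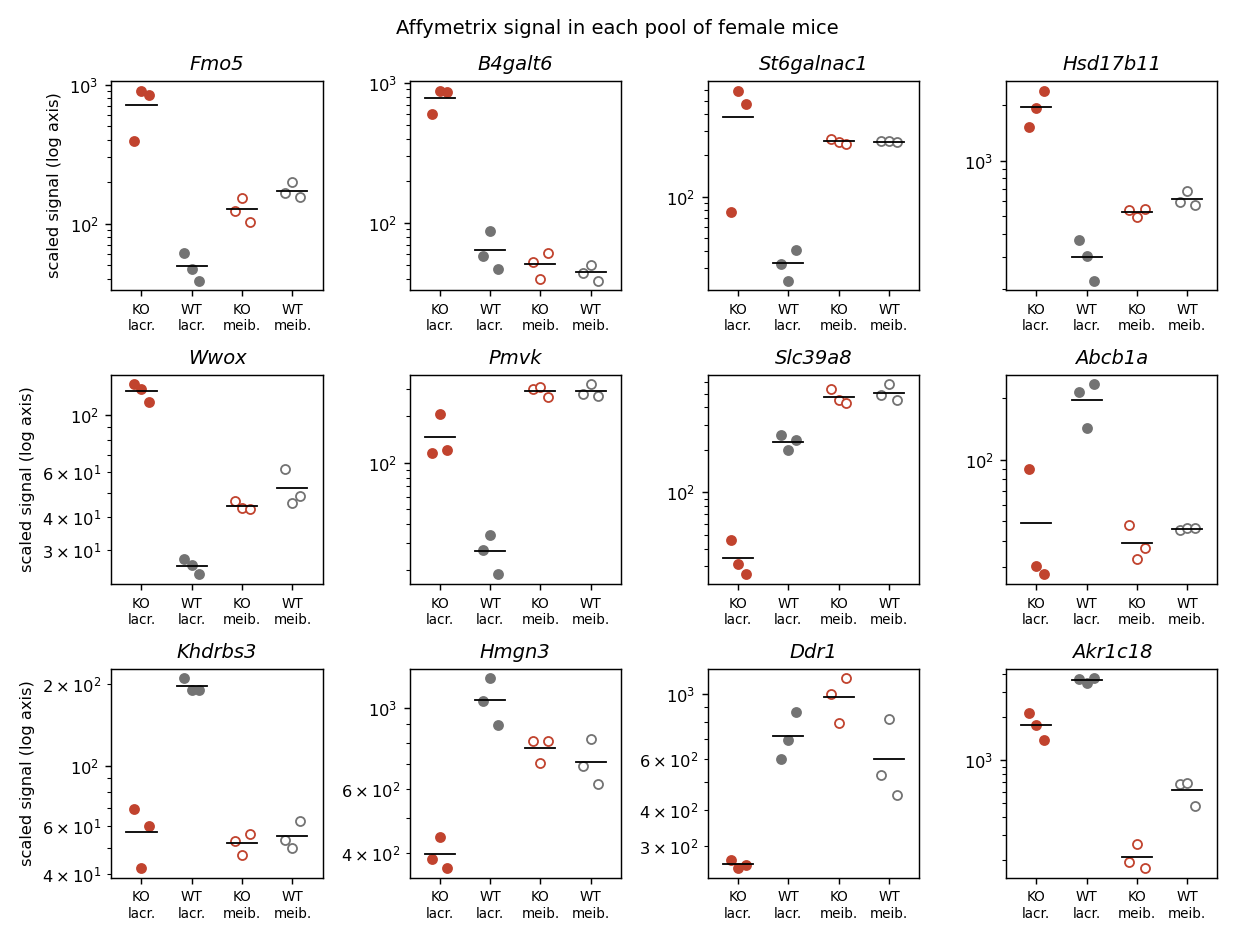
Scaled Affymetrix signal (log axis) of 12 genes in every pool of female mice, with KO and WT lacrimal pools (filled) left of KO and WT meibomian pools (open). Points are single pools and bars group means of 3. The lacrimal groups are apart in every panel, and the meibomian groups overlap except for Fmo5, Hsd17b11 and Akr1c18, where the KO meibomian pools lie below the WT meibomian pools. The meibomian effect passed for Akr1c18 alone, and with this scaling it was negative in 79.2% of all genes tested.

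Slc39a8, a zinc and manganese importer, read 45.8, 31.4 and 26.3 in KO lacrimal pools, against 253, 200 and 234 in WT lacrimal pools. The KO lacrimal pools were all far below the WT pools. The gene read 542, 449.8 and 426 in KO meibomian pools, against 487, 581 and 447 in WT meibomian pools, with overlapping groups, and the gland difference was −2.53 ± 0.26, adjusted p = 2.99e-07. On CodeLink the same contrast was −0.29 ± 0.32, adjusted p = 0.738, where 5 of 6 lacrimal readings lacked the flag G. Abcb1a, a drug efflux pump of the P-glycoprotein type, read 89.6, 30.3 and 27.5 in KO lacrimal pools, against 213, 142 and 233 in WT lacrimal pools, and differed by −1.85 ± 0.45, adjusted p = 0.0251 on Affymetrix and −1.80 ± 0.41, adjusted p = 0.0177 on CodeLink. The Affymetrix call was lost when any of 7 arrays was left out, with adjusted p from 0.0509 to 0.0881, and under 2 of 15 other settings. Tmeff1, a membrane protein with follistatin domains, differed by −1.56 ± 0.42, adjusted p = 0.0417, and this call was lost without any of 10 arrays, with values of −1.27 to −1.65. It was also lost under 4 of 14 other settings. Adgra3, an adhesion receptor coupled to G proteins, differed by −1.5 ± 0.35, adjusted p = 0.0176, which 2 arrays decided: the value was −1.42 (adjusted p = 0.0512) without KO lacrimal replicate 2 and −1.31 (adjusted p = 0.0681) without WT meibomian replicate 2.

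Hmgn3, Khdrbs3 and Trim24, which act in chromatin, RNA processing and transcription, fell in the lacrimal gland, and their meibomian effects did not pass. Hmgn3, which binds nucleosomes, read 386, 443 and 364 in KO lacrimal pools, against 1040.4, 1203 and 898 in WT lacrimal pools. The gland difference was −1.51 ± 0.23, adjusted p = 0.000163, and −1.78 ± 0.19, adjusted p = 3.08e-05 on CodeLink, where the lacrimal readings were 9.14, 9.23 and 7.93 in KO and 34.5, 35.5 and 34.5 in WT pools. Both array types thus had the 3 KO lacrimal pools below the 3 WT lacrimal pools. Khdrbs3, a regulator of splicing, read 69.7, 42.1 and 60 in KO lacrimal pools, against 209.9, 189 and 190.2 in WT lacrimal pools, and differed by −1.66 ± 0.33, adjusted p = 0.00368 on Affymetrix and −1.69 ± 0.25, adjusted p = 0.00052 on CodeLink. Trim24, a coregulator of nuclear receptors, read 109.9, 117 and 121 in KO lacrimal pools, against 631, 481 and 331 in WT lacrimal pools. It read 69.6, 68.8 and 68.8 in KO meibomian pools, against 91.5, 94 and 108 in WT meibomian pools, where the KO pools were lower too. The difference of Trim24 was −1.49 ± 0.28, adjusted p = 0.00222. Ppp2r1b, a scaffold subunit of the protein phosphatase PP2A, had a difference of −1.64 ± 0.25, adjusted p = 0.000163, Acot7, an acyl-CoA thioesterase, −1.43 ± 0.28, adjusted p = 0.0035, and Cish, a feedback inhibitor of cytokine receptors, −1.44 ± 0.28, adjusted p = 0.00309.

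Ddr1, Glul, Dnaja4 and Tob2 had lacrimal effects below 0 and meibomian effects above 0, none of the meibomian ones past 5%. Effects of opposite sign were not particular to these genes: 30 of the 51 negative genes had them, Cish among them. Ddr1, a collagen receptor with kinase activity, read 269.6, 252 and 259.8 in KO lacrimal pools, against 596, 695 and 869 in WT lacrimal pools. It read 1003, 792 and 1133 in KO meibomian pools, against 528, 818 and 451 in WT meibomian pools, where the groups overlapped. The lacrimal effect was −1.44 ± 0.29, the meibomian effect 0.73 ± 0.29 with an adjusted p of 0.524, and the difference −2.17 ± 0.41, adjusted p = 0.00264. All 8 probe sets of Ddr1 were negative but ranged from −2.17 to −0.09, their mean giving −0.98 (adjusted p = 0.0642), and CodeLink gave −0.40 ± 0.26, adjusted p = 0.513. Glul, glutamine synthetase, differed by −1.48 ± 0.28, adjusted p = 0.00257, with −0.94 ± 0.26, adjusted p = 0.0604 on CodeLink and −0.95 (adjusted p = 0.0802) as the mean over its probe sets. Dnaja4, a cochaperone, differed by −1.54 ± 0.29, adjusted p = 0.00232, and the 3 probe sets ran from −1.54 to −0.41, their mean giving −0.84 (adjusted p = 0.164). Tob2, an inhibitor of proliferation, differed by −1.51 ± 0.24, adjusted p = 0.000331, but its probe sets ran from −1.51 to 0.32, their mean gave −0.45 (adjusted p = 0.397), and CodeLink gave −0.79 ± 0.36, adjusted p = 0.311. Col1a1, the main chain of fibrillar collagen, differed by −1.46 ± 0.40, adjusted p = 0.0439, and 10 arrays each ended that call when left out, with values of −1.20 to −1.50. The call of Col1a1 was also lost under 6 of 13 other settings. All 15 negative genes, chosen in the same way, had lower signal in the 3 KO lacrimal pools than in the 3 WT lacrimal pools, as in 1175 of all genes tested (17.9%). Their meibomian effects lay between −0.48 and 0.73.

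Promoters (build GRCm38.p6, 250 bases before to 50 after the start) are shown for the 2 leading genes of each direction with an entry in the RefSeq table. Leading means the largest Affymetrix difference among the genes described above. Where a gene has several entries the first is given. Capitals mark GGTCA or its reverse complement, which is 1 arm of the estrogen response element.
Fmo5 (chr3:97628769-97629068, plus strand): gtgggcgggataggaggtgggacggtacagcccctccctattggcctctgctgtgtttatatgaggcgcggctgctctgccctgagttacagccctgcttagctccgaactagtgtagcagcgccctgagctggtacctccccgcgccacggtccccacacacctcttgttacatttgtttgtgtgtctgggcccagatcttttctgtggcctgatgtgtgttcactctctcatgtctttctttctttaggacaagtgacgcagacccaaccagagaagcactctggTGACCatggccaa
Hsd17b11 (chr5:104021747-104022046, minus strand): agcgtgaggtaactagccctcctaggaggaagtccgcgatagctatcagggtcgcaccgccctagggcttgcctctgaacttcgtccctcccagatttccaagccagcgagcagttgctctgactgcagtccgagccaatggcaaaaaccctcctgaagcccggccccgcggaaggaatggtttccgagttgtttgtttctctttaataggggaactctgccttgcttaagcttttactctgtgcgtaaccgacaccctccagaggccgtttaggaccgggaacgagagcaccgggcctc
Slc39a8 (chr3:135825029-135825328, plus strand): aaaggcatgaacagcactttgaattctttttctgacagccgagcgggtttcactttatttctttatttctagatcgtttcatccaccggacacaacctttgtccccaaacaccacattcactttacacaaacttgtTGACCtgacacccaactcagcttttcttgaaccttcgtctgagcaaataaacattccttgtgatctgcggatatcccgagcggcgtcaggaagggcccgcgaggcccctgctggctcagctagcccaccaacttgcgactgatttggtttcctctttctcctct
Ddr1 (chr17:35704550-35704849, minus strand): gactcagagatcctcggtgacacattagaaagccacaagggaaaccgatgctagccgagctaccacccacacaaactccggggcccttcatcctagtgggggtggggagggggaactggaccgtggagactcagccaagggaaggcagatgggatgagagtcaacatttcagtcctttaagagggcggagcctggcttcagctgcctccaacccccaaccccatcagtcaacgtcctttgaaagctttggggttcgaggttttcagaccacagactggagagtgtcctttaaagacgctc
Fmo5 and Slc39a8 hold 1 such match each in these windows, and Hsd17b11 and Ddr1 hold none. Of the genes tested, 6980 promoters are in the table. The full element, GGTCA followed after any 3 bases by its reverse complement, was searched on both strands and is in 23 of 32851 promoters (0.07%). It is in none of the 6980 promoters of the genes tested. Its lack in the 105 promoters of positive and the 58 of negative genes follows from that and tells nothing of the called genes. GGTCA, which is part of that element, is in 31.4% of the promoters of positive genes, 44.8% of those of negative genes, 38.0% of those of all genes tested and 40.5% of all promoters in the table. AGAACA, 1 arm of the androgen response element, is in 18.1%, 12.1%, 12.3% and 19.0% in the same order. A match or its lack in this window is a description of letters and shows no binding.

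**Figure D3:**
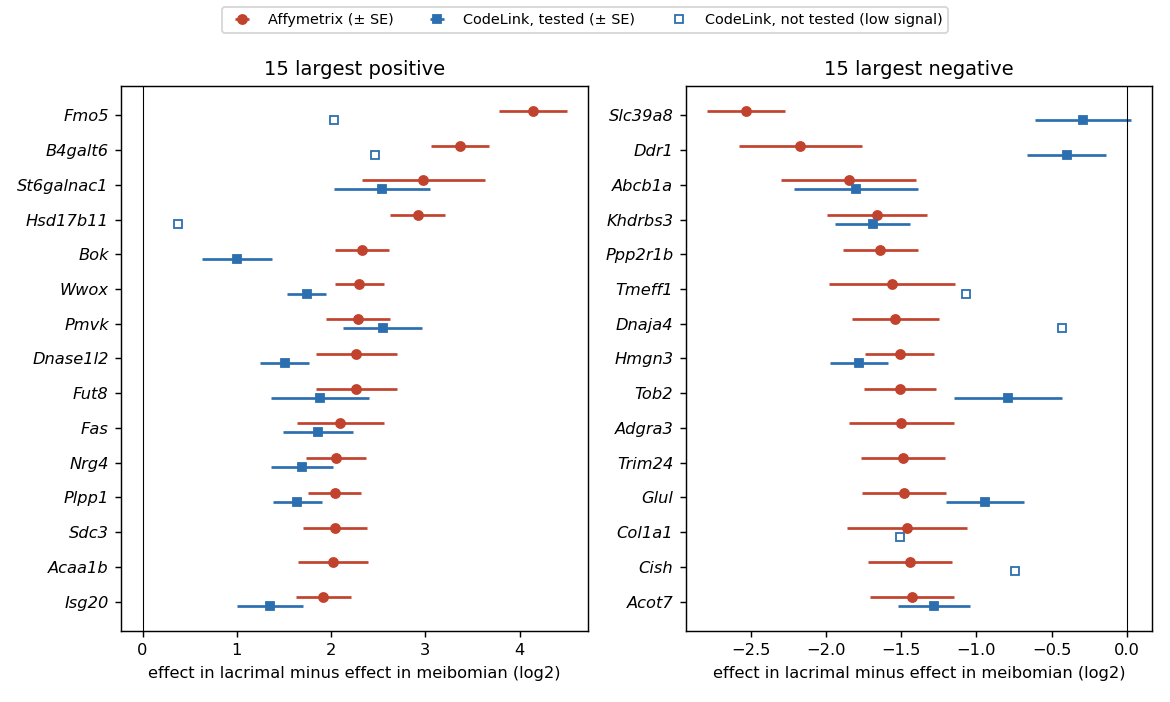
Gland difference of the knockout effect (log2, lacrimal minus meibomian) for the 15 positive and 15 negative genes described above, on Affymetrix (red circles, ± SE) and CodeLink (blue squares, ± SE; open where signal was too low for the test). Genes were chosen to have the same sign on both types, so agreement of sign is by choice, and the distance between the symbols shows where the sizes differ, as for Hsd17b11, Slc39a8 and Ddr1.

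CodeLink called 131 of its 5700 tested genes (2.3%), 60 positive and 71 negative. Of the 149 Affymetrix genes, 122 had a CodeLink spot and 105 of those had the same sign, with no signal filter on CodeLink. Among all 3914 genes that passed the filter on both types, 55.6% had the same sign. The 2 shares thus rest on unlike sets of genes. Among those 3914 genes, 26 were called by both types, which is 26.5% of the 98 Affymetrix calls and 32.9% of the 79 CodeLink calls, and all 26 had the same sign. Since both types read the same pools, these shares speak of the measurement and not of new animals. CodeLink called 388 genes for the lacrimal and 2 for the meibomian effect.

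Genes with signal in 1 gland only were examined with a filter that asked for the top 60% in at least 1 gland. This tested 8294 genes and called 166 (2.0%), among them 32 of the 1716 genes that had failed the filter in 1 gland (1.86%), 18 positive and 14 negative. Such genes pass only through the gland where they are high, often through 1 genotype there, so their values are a description and no p is given. The 4 largest of each direction are described, again without genes of opposite sign on CodeLink. Ly6f, of the Ly6 family of lipid-anchored surface proteins, read 3198, 5041 and 6035 in KO lacrimal pools, against 61.4, 95.1 and 38.4 in WT lacrimal pools. No meibomian pool exceeded 5.9. The gland difference was 6.66 ± 0.50, and 5.49 on CodeLink. Cyp2j13, a cytochrome P450 of the arachidonic acid epoxygenase family, read 596, 1255 and 1569.9 in KO lacrimal pools, against 15.4, 13.6 and 17.9 in WT lacrimal pools. The difference was 5.97 ± 0.45, and 6.78 on CodeLink, with no meibomian pool above 3.4. Cuzd1, a protein with CUB and zona pellucida domains known from pancreatic secretory granules, read 246, 190.5 and 146 in KO lacrimal pools, against 0.9, 15 and 4.0 in WT lacrimal pools. The gland difference of Cuzd1 was 4.52 ± 0.65. Prol1, the proline-rich lacrimal protein, read 105, 149 and 490.1 in KO lacrimal pools, against 40.9, 0.3 and 0.9 in WT lacrimal pools, and differed by 4.2 ± 0.83. The largest Prol1 reading came from KO replicate 3, and without it the difference was 3.55. For Ly6f, Cyp2j13 and Prol1 both meibomian groups had means under the pseudocount, and for Cuzd1 the meibomian means were 4.3 in KO and 4.8 in WT and the WT lacrimal mean 6.6, close to it, so the sizes of all 4 differences depend on the pseudocount.

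The negative genes of this kind differed in where they had signal. Asgr1, a subunit of the asialoglycoprotein receptor, read 977, 689 and 284 in KO lacrimal pools, against 1681, 2076 and 1745 in WT lacrimal pools, and at most 5.7 in meibomian pools. Reep6, which shapes the endoplasmic reticulum, had high meibomian signals of 546, 683 and 587 in KO and 718, 877 and 768 in WT pools, and 2.9, 2.4 and 0.9 in KO against 40, 33.4 and 40.4 in WT lacrimal pools. Their differences were −2.32 ± 0.47 for Asgr1 and −2.44 ± 0.32 for Reep6. Reep6 was −0.56 on CodeLink. Fgfrl1, a fibroblast growth factor receptor without a kinase domain, differed by −3.03 ± 0.60, and Lama5, a laminin chain of basement membranes, by −2.39 ± 0.48; the other probe set of Lama5 gave −0.28. The KO lacrimal means of Reep6 and Lama5 and the WT meibomian mean of Asgr1 were under the pseudocount.

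Akr1c18 was the 1 gene called in the meibomian gland, and it is named here after its values were seen. It encodes the hydroxysteroid dehydrogenase that inactivates progesterone. It read 2123, 1749 and 1391 in KO lacrimal pools, against 3696, 3463 and 3754 in WT lacrimal pools. It read 193, 259.7 and 174 in KO meibomian pools, against 684, 694 and 477 in WT meibomian pools, and neither pair of groups overlapped. The lacrimal effect was −1.07 ± 0.19 (adjusted p = 0.000376) and the meibomian effect −1.55 ± 0.19 (adjusted p = 3.62e-05). The gland difference, 0.48 ± 0.27, adjusted p = 0.431, did not pass, and it was −0.26 ± 0.29, adjusted p = 0.736 on CodeLink, where the lacrimal effect was −1.55 and the meibomian effect −1.28. Akr1c18 therefore fell in both glands of KO females on both array types.

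For 14 positive and 6 negative genes the difference passed although neither gland's effect did. Among them were Thrsp, a regulator of lipid synthesis, and Fech, the last enzyme of heme synthesis. Thrsp had a lacrimal effect of 0.93 ± 0.31 and a meibomian effect of −0.80 ± 0.31, with a difference of 1.73 ± 0.44, adjusted p = 0.0293. That call was lost without any of 7 arrays, at 1.26 to 1.72, the lowest being without KO lacrimal replicate 3, and under 1 of 14 other settings. Fech had 0.39 ± 0.17 and −0.53 ± 0.17, with a difference of 0.93 ± 0.24, adjusted p = 0.0352, and Fech was 0.27 on CodeLink (adjusted p = 0.828). The meibomian effect was negative for 85 of the 98 positive genes (86.7%), 21 of the 51 negative genes (41.2%) and 79.2% of all genes tested. Choosing genes by the difference itself favours such a split. These shares hold for the main scaling only. There the median meibomian effect over all genes tested was −0.166. It was −0.045 with quantile normalization within each gland, −0.046 with that of all arrays and −0.016 on CodeLink.

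Of the 40 gene lists examined, 34 had at least 5 tested members, and the median difference over all tested genes was 0.069. The lists were chosen with earlier results of these data known, so their shares of called members are description only. In the list of glycosyltransferases and mucins, 3 of 13 tested members passed, all positive (B4galt6, Fut8 and St6galnac1). Of all genes tested, 2.27% passed, 1.49% in the positive direction. The list median was 0.45. On CodeLink 1 of 12 members passed and the median was 0.05. In the list of meibomian and sebaceous genes, 2 of 14 passed, Scd1 and Fabp5, with a median of 0.38. Fabp5, a fatty acid carrier of epithelia, read 178, 356 and 274 in KO lacrimal pools, against 111, 104 and 107 in WT lacrimal pools, and differed by 1.48 ± 0.29, adjusted p = 0.00309; on CodeLink it was 1.04 ± 0.34, adjusted p = 0.118. The other 12 members did not pass, and the CodeLink median was −0.23 over 8 members. The list of fatty acid and glyceride synthesis had 1 positive gene, Thrsp, and 1 negative gene, Acsl4, an acyl-CoA synthetase for arachidonate (−1.15 ± 0.24, adjusted p = 0.00618), of 20 tested. The 3 probe sets of Acsl4 ran from −1.15 to 0.35, and their mean gave −0.32 (adjusted p = 0.627). Cholesterol synthesis had 1 of 18, Pmvk, while 12 of the 18 members were negative and the median was −0.15.

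Steroid and hormone-response lists held single called genes, where 2.27% of all genes tested passed. Among steroid receptors and steroid enzymes 1 of 9 passed, Hsd17b11, with a list median of 0.46. On CodeLink the median of that list had the other sign, −0.12 over 5 tested members, and 0 passed. The estrogen-responsive list had 1 of 14, Cish in the negative direction, and a median of −0.04. The androgen-responsive list had 1 of 8, Cyp4a12a, a fatty acid hydroxylase of the P450 family known to be higher in livers of male mice. Cyp4a12a read 55.5, 142 and 164 in KO lacrimal pools, against 29.6, 17.3 and 34.3 in WT lacrimal pools, and its difference of 1.55 ± 0.40, adjusted p = 0.0353 was lost under 7 settings and without any of 7 arrays, with values of 1.23 to 1.55. It was also the 1 called of 15 tested cytochrome P450 genes.

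Lists of stress, immune and matrix genes held at most 1 called gene each, where 2.27% of all genes tested passed. Jun was the 1 called of 19 immediate early genes (−1.22 ± 0.30, adjusted p = 0.0277), and −1.28 ± 0.29, adjusted p = 0.0179 on CodeLink. Il18, an inflammasome cytokine, was the 1 of 13 cytokines and chemokines (1.5 ± 0.30, adjusted p = 0.00359), Clu, the chaperone clusterin, the 1 of 9 complement and acute phase genes (1.06 ± 0.26, adjusted p = 0.0272), and Gpx4, the peroxidase that reduces lipid peroxides, the 1 of 23 oxidative stress genes (1.23 ± 0.33, adjusted p = 0.0435). Col1a1 was the 1 of 25 fibroblast and matrix genes, with a list median of −0.18, and Fech the 1 of 9 Harderian gland genes. Calls were lost when a single array was left out for Jun (6 arrays, −0.96 to −1.24), Clu (6 arrays, 0.95 to 1.06), Gpx4 (10 arrays, 1.08 to 1.31) and Fech (9 arrays, 0.82 to 0.97). The call of Gpx4 was also lost under 7 of 16 other settings and that of Fech under 2 of 16, CodeLink among them. Il18 was 0.57 on CodeLink (adjusted p = 0.27), Clu 0.28 (adjusted p = 0.865) and Gpx4 0.12 (adjusted p = 0.902). The mean over the probe sets of Clu gave 0.83 (adjusted p = 0.0953).

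No member passed in the lists of lacrimal acinar and tear proteins (9 tested, median 0.55), secretory pathway (31, 0.18), chaperones (28, 0.19), ribosomal proteins (26, 0.32), oxidative phosphorylation (33, 0.29), fatty acid oxidation (21, 0.19) and ion and water transport (15, 0.36). The same held for heat shock (18, −0.16), the circadian clock (14, −0.22), growth factors (21, −0.22), cell cycle (13, 0.16), interferon-stimulated genes (15, 0.29), antigen presentation (16, 0.14), macrophages (25, −0.05), B and plasma cells (6, 0.09), endothelium (8, 0.00), adipocytes (7, −0.21), keratinocytes (8, −0.09), conjunctiva (8, 0.35) and smooth muscle and myoepithelium (12, −0.51). These lists hold 332 different tested genes, of which 57 (17.2%) had an unadjusted p under 0.05, against 951 (14.5%) of all genes tested, and CodeLink called 6 of their members. On CodeLink the medians of acinar and tear proteins (−0.04), ribosomal proteins (−0.17), oxidative phosphorylation (−0.23) and ion transport (−0.22) had the other sign, against a median of −0.104 over all CodeLink genes. So did those of the secretory pathway (−0.13), chaperones (−0.11), fatty acid oxidation (−0.06), antigen presentation (−0.30), the circadian clock (0.25) and conjunctiva (−0.11). The members with the smallest p in lists without a call included Hspa1b (−1.76 ± 0.51, adjusted p = 0.0641), C1qb (−1.06 ± 0.31, adjusted p = 0.0686), B2m (1.13 ± 0.32, adjusted p = 0.0583), Sdhd (0.69 ± 0.20, adjusted p = 0.059) and Prom2 (0.97 ± 0.28, adjusted p = 0.0631). The summed signal of 3 B and plasma cell markers on the array was 15602 to 18517 in KO against 9384 to 13911 in WT lacrimal pools. Igha carried most of it, with a lacrimal effect of 0.55 ± 0.18 that did not pass (adjusted p = 0.0516). Jchain read 4546, 5383 and 5836 in KO and 3707, 1879 and 2691 in WT lacrimal pools. Its lacrimal effect was 0.98, and its gland difference of 0.69 did not pass (adjusted p = 0.316). In the B and plasma cell list 1 of 6 tested members passed upward for the lacrimal effect, against 2.57% of all genes tested. Cd79a read 3.7, 15.9 and 13.6 in KO and 19.3, 11 and 13.4 in WT lacrimal pools. Their part in the differences was not tested.

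**Figure D4:**
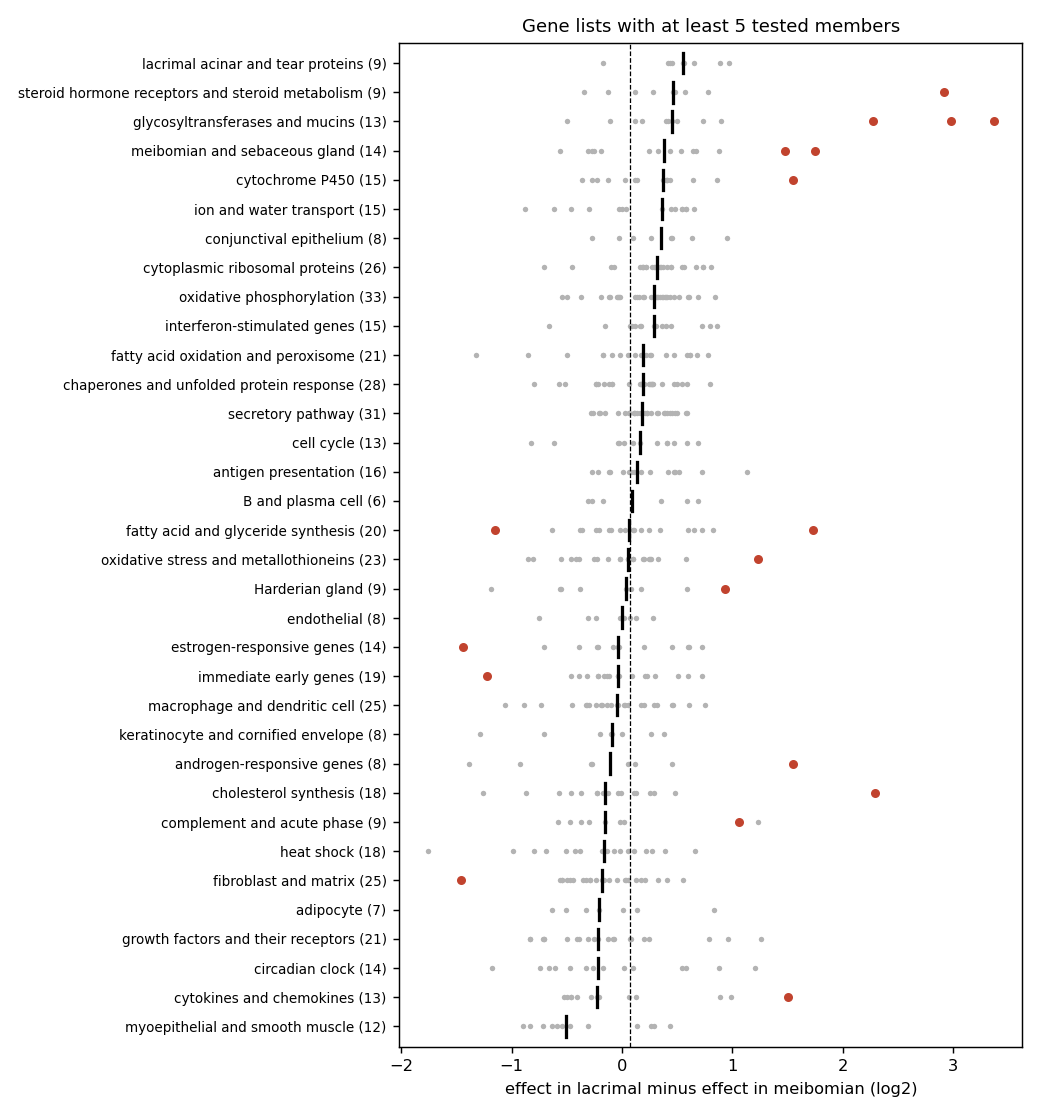
Gland difference (log2, lacrimal minus meibomian) of each tested member of the 34 lists with at least 5 such members. Red points are members past 5%, grey points other members, black bars list medians, and the dashed line the median of all 6578 genes, 0.069. Most lists hold 1 red point or none, and the list of glycosyltransferases holds 3.

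The same contrast was taken in males. The difference between females and males was tested directly and passed for 46 of 6578 genes (0.699%), of which 29 were among the 149 called in females, a count that shares the female arrays. In males 44 genes were called (0.669%), and 5 of these were among the 149, all with the same sign. Of the 15 positive genes described above, 9 passed for the difference between the sexes. For B4galt6 the gland difference was 3.37 ± 0.31 in females and 0.12 ± 0.31 in males, and the sexes differed by 3.25 ± 0.44, adjusted p = 6.15e-05. Hsd17b11 was 2.92 ± 0.29 in females and 0.16 ± 0.29 in males (2.76 ± 0.41, adjusted p = 0.000198), and Wwox 2.30 ± 0.26 in females and −0.51 ± 0.26 in males (2.81 ± 0.37, adjusted p = 6.15e-05). Fmo5 was positive in both, at 1.03 ± 0.36 in males, and the difference was 3.11 ± 0.51, adjusted p = 0.00086. Of the 15 negative ones, Slc39a8 and Acot7 passed, at −1.72 ± 0.37, adjusted p = 0.0155 and −1.89 ± 0.40, adjusted p = 0.0127. Dnaja4 was called in males too, with −1.54 ± 0.29 in females and −1.64 ± 0.29 in males. Isg20 was 1.07 ± 0.29 in males and Fut8 1.16 ± 0.43, and their differences between the sexes did not pass.

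**Figure D5:**
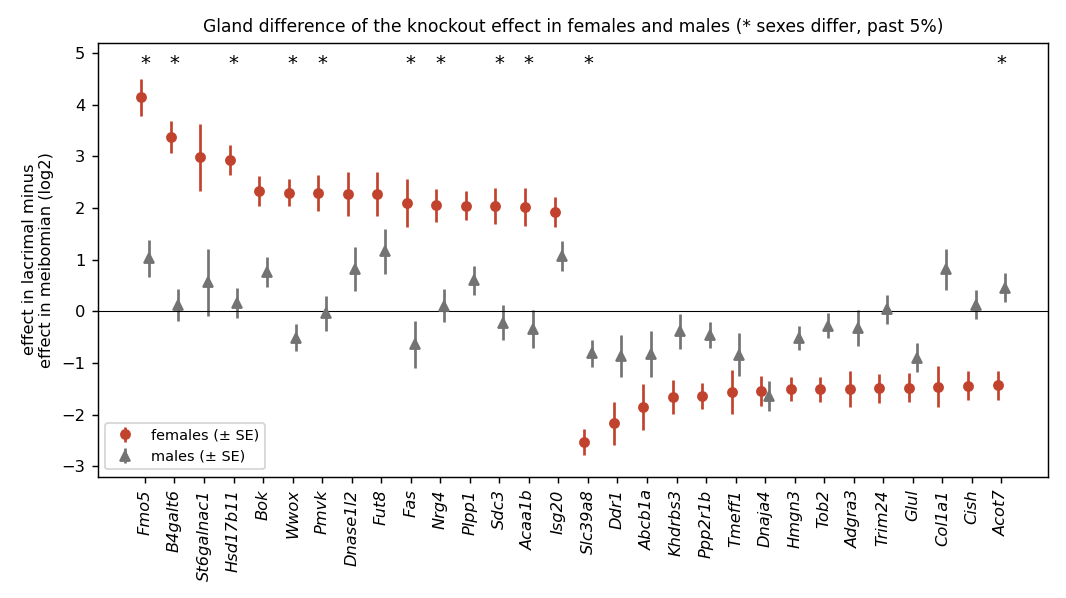
Gland difference of the knockout effect (log2, ± SE) for the 30 genes described above, in females (red circles) and males (grey triangles). Stars mark the 11 genes whose difference between the sexes passed 5%. Female values are far from 0 by choice, and the male and female values of Dnaja4 are close together.

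Genes near a targeted locus stay linked to it in a knockout line, and Cyp19a1 lies on chromosome 9. Among the 100 tested genes on each side of Cyp19a1, 6 of 200 (3.0%) were called, against 2.27% of all genes tested: Nrg4 and Il18 were positive, and Cadm1 (−0.88), Dnaja4, Hmgn3 and Ppp2r1b negative. On the whole chromosome 13 of 371 tested genes (3.5%) were called. The part of linkage in these values was not tested.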

How the data were processed

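RNA pools from 5 to 8 mice per sample were measured on Affymetrix and CodeLink arrays. The values are array intensities, 1 per probe set or spot, as deposited by the authors. GCOS is named in the submitters' processing notes, and further steps are not given in the sources used here. The medians of the female CodeLink arrays were 0.948 to 0.964 as deposited, so these values were already close to a common scale. The number of arrays limits the precision. Here 835 missing CodeLink values were left out and other CodeLink values below 0 were set to 0. Each array was scaled to a common median, the 20th percentile of the positive scaled values was added (3.904 Affymetrix, 0.2673 CodeLink), and log2 was taken. Probe sets naming 1 gene were kept, with the brightest per gene, and genes in the top 60% in both glands were tested: 6578 on Affymetrix and 5700 on CodeLink. limma 3.58.1 (R 4.3.3) fitted 8 group means over 24 arrays per type, males included, with 16 residual degrees of freedom, and p-values were adjusted by Benjamini-Hochberg over all genes tested.

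Named genes were the 15 largest positive and 15 largest negative past 5% with the same CodeLink sign where measured, up to 4 called members of each list (or the 2 with the smallest p), and, by the same sign rule, the 4 largest in each direction among genes of 1 gland. The members and lists were chosen with earlier results of these data known. Alternatives were other scalings, pseudocounts, filters, probe-set rules, variance models, sample sets, blocks and array types, and leaving out each array. The 18 correlations between same-numbered pools ran from −0.195 to 0.158, and 1 exceeded 0.1. Only 6 of them joined the glands of 1 genotype, and these ran from −0.076 to 0.158. The others joined KO to WT pools, which cannot share mice. Pools of unlike number ran from −0.186 to 0.202. With so few pools per group, these values cannot decide whether the numbers pair the pools. The fit was tested on simulated data. GEO's probe annotation may be old, and 20364 symbols were updated.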

Additional observations from a re-analysis of the deposited data

Results flagged for a closer look

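A test of the difference between the glands picked out 149 genes, whose knockout effect was not the same in lacrimal and meibomian glands of females; values here are lacrimal minus meibomian (log2). The positive ones named above were Fmo5 (4.14), B4galt6 (3.37), St6galnac1 (2.98), Hsd17b11 (2.92), Bok (2.33), Wwox (2.30), Pmvk (2.29), Dnase1l2 (2.27), Fut8 (2.27), Fas (2.10), Nrg4 (2.05), Plpp1 (2.04), Sdc3 (2.04), Acaa1b (2.02) and Isg20 (1.92). The negative ones were Slc39a8 (−2.53), Ddr1 (−2.17), Abcb1a (−1.85), Khdrbs3 (−1.66), Ppp2r1b (−1.64), Tmeff1 (−1.56), Dnaja4 (−1.54), Hmgn3 (−1.51), Tob2 (−1.51), Adgra3 (−1.5), Trim24 (−1.49), Glul (−1.48), Col1a1 (−1.46), Cish (−1.44) and Acot7 (−1.43).

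Members of the gene lists that passed the same test were Scd1 (1.75), Thrsp (1.73), Cyp4a12a (1.55), Il18 (1.5), Fabp5 (1.48), Gpx4 (1.23), Clu (1.06), Fech (0.93), Acsl4 (−1.15) and Jun (−1.22). Among genes with signal in 1 gland, given as a description, they were Ly6f (6.66), Cyp2j13 (5.97), Cuzd1 (4.52), Prol1 (4.2), Fgfrl1 (−3.03), Reep6 (−2.44), Lama5 (−2.39) and Asgr1 (−2.32).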

How the results depend on the processing

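Of the 30 genes with the largest differences described above, 19 kept their call under each setting in which they were tested, 13 to 16 of them, and without each array. Of these, 8 had no CodeLink test. None of the 30 reversed, but genes of opposite sign on CodeLink had not been eligible. The 149 calls (98 positive, 51 negative) became 339 (208 and 131) with quantile normalization within each gland, 298 (186 and 112) with quantile normalization of all arrays, 266 (131 negative) with every probe set and 291 (188 and 103) with the 12 female arrays only. The positive count was 63 with the mean over probe sets and 60 on CodeLink, and the negative count 93 with values centred on the median after the logarithm instead of scaled. The lacrimal count of 513 was 300 with the top 40%, 823 with female arrays only and 187 with 1 variance for each gland. The meibomian count of 1 was 2 with values centred after the logarithm, with quantile normalization of all arrays, with the top 40% and on CodeLink. It was 6 with female arrays only, 18 with every probe set and 119 with 1 variance for each gland. The contrast between the sexes (46) gave 117 and 97 with quantile normalization within glands and of all arrays, 28 with the top 40% and 73 on CodeLink. The cause was not tested. The median difference over all genes was 0.069 as reported, −0.011 with values centred after the logarithm, and 0.027 and 0.029 with the quantile settings.

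Leaving out 1 array gave 78 to 171 calls (47 to 120 positive, 25 to 51 negative), 326 to 479 for the lacrimal effect, 1 to 3 for the meibomian effect, 37 to 66 between the sexes and 77 to 179 on CodeLink, with fewer samples in each such fit. With the replicate number as a block there were 158 calls, and 156 with the number as a block within each genotype and sex. Whether the numbers pair the samples is not known.

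Signs reversed for values that had not passed. With the mean over probe sets these were Hadhb (−0.02), Sdhd (−0.03), Zap70 (0.77), H2-D1 (−0.07), Agr2 (−0.99) and Kit (0.15). On CodeLink they were Lyz1 (−0.57), Hadhb (−1.31), Pdia3 (−0.08), Aqp5 (−0.33), Sdhd (−0.38), Cox6a2 (−0.12), Agr2 (−0.05), Cnp (−0.26) and Akr1c18 (−0.26). With an array left out the values of Zap70 ran from −0.35 to 0.34, of Amy1 from −2.64 to 1.98, of Pmp22 from −0.39 to 0.03 and of Eif2s3y from −0.07 to 0.39, across 0 in each.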
